A study of Mus musculus with 12 samples.

Results

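MHC class II antigen presentation was followed here through 8 genes, H2-Aa, H2-Ab1, H2-Eb1, H2-DMa, H2-DMb1, Cd74, Ciita and Ctss, taken by symbol from the 48795 genes of the liver RNA-seq table. All 8 were among the 13812 genes with enough counts to be tested. Livers came from female mice, 4 months old, littermates kept on normal chow, that were labelled Nts+/+ or Nts-/- for neurotensin, a gut peptide, and had food ad libitum or none for 22 h . There were 3 mice in each of the 4 groups, and the knockout is described as whole-body, bred from heterozygous parents, not as specific to liver. Total counts per liver ranged from 21999656 to 27297486 in fed Nts+/+, from 23040688 to 36018411 in fasted Nts+/+, from 24051013 to 34316287 in fed Nts-/- and from 23048879 to 45273081 in fasted Nts-/- mice. The 4 groups let the effect of fasting be asked in each genotype, and the effect of genotype in each feeding state.

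The check of the targeted gene went against its labels. Nts had 0 counts in all 6 libraries labelled Nts+/+, which allows up to 3 counts in each, while the 3 fed libraries labelled Nts-/- had 46, 40 and 15 counts and the 3 fasted ones had 12, 4 and 18. The groups are therefore named below as the libraries labelled Nts+/+ or Nts-/-, and every direction between genotypes follows the deposited labels. The fasting comparisons set mice of the same genotype label against each other.

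MHC class II molecules present peptides from endocytosed proteins to CD4+ T cells, and are made mainly by dendritic cells, B cells and macrophages. The α and β chains pair in the endoplasmic reticulum around the invariant chain, Cd74, which is then cut away in endosomes by proteases such as cathepsin S, and H2-DM exchanges the remaining fragment for a peptide. Transcription of the pathway depends on Ciita, a coactivator that does not bind DNA itself but joins factors on the X and Y boxes of class II promoters. In liver, Kupffer cells, the resident macrophages, are a major class II positive population beside dendritic cells and B cells, and the RNA was extracted from whole liver, so fewer cells of a type and less RNA per cell cannot be told apart.

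H2-DMa, H2-DMb1 and the chain genes lie in the H2 complex on chromosome 17 (GRCm38): H2-DMa at chr17:34135182-34139101, H2-DMb1 at chr17:34153072-34160230, H2-Ab1 at chr17:34263209-34269418, H2-Aa at chr17:34282744-34287827 and H2-Eb1 at chr17:34305877-34316199. Of the others, Ciita lies at chr16:10488178-10527564 and Ctss at chr3:95526786-95556403. The spans of Cd74, Ciita and Ctss each overlap 1 other gene of the table, and whether counting used strand is not given in the sources used here. H2-DMb1 has a near copy, H2-DMb2, with which 27.2% of its transcript stretches of 50 bases are identical, and its expected counts were not whole numbers in 11 mice, so its reads may be shared between the copies.

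The promoters are shown because the members moved together and because the class II box sequences can be read in them. The RefSeq promoter table (GRCm38.p6) gave 250 bases before the start for H2-Aa (chr17:34287824-34288073, minus strand), H2-Eb1 (chr17:34305617-34305866, plus strand), H2-DMb1 (chr17:34152941-34153190, plus strand) and Ctss (chr3:95526536-95526785, plus strand). Capitals mark an X box (CTNGNAAC) and a Y box (TGATTGG) in the class II genes, and an interferon-stimulated response element (ISRE, searched as GAAA, any 2 bases and GAAA again) in Ctss. These letters were chosen after the promoters had been seen, and both strands were searched.
H2-Aa: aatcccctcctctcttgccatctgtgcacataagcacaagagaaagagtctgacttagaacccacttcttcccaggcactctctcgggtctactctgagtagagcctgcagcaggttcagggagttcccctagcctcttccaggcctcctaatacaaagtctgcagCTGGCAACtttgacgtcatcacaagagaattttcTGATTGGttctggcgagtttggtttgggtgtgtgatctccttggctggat
H2-Eb1: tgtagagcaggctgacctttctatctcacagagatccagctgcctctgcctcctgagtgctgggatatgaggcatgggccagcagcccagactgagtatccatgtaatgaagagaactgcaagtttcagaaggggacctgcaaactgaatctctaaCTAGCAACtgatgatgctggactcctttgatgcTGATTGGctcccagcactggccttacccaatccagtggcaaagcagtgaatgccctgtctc
H2-DMb1: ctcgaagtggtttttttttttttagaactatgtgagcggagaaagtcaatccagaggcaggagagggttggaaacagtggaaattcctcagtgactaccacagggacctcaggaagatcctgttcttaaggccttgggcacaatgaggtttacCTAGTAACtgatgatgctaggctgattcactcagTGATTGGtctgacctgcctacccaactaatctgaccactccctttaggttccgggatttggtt
Ctss: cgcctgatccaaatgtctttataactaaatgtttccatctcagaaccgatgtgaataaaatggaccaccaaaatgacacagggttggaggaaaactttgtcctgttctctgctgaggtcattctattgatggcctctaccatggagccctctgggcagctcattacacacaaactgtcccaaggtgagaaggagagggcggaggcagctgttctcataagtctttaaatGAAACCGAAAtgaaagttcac
In H2-Aa the X box ran from 84 to 77 bases before the start and the Y box from 50 to 44, in H2-Eb1 from 94 to 87 and from 61 to 55, and in H2-DMb1 from 97 to 90 and from 63 to 57, so that the first bases of the boxes were 33 or 34 bases apart in each. Of all 32851 promoters of this length in the table, 10.9% held the X letters, 7.23% the Y letters and 0.819% both, and 5 promoters (0.0152%) held X followed by Y at that spacing, which was itself read from these genes. Those 5 belonged to H2-Aa, H2-Eb1, H2-DMb1, BC051142 and 1700048F04Rik. The ISRE of Ctss ran from 21 to 12 bases before its start, and 2.98% of promoters held one. The promoter of H2-DMb2 held the Y letters only. The 2 promoters listed for H2-DMa (chr17:34122582-34122831 and chr17:34125268-34125517) held none of these letters. Both lie before the span of H2-DMa given above without reaching it, so the bases next to that span were not searched. All distances were counted from the RefSeq starts. For H2-DMb1 that start lies inside the span given above, which begins at 34153072, and both its boxes lie inside that span too. The promoter table had no entry for H2-Ab1 and Ciita, and the promoter of Cd74 is not reported here.

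Levels can be compared between genes only per length. On the scale of TMM-normalized CPM per kb of the longest transcript, as mean ± SD of the 12 mice, Cd74 stood highest at 58.8 ± 18.6, followed by H2-Ab1 at 22.1 ± 8.69, H2-Eb1 at 13.4 ± 4.87, Ctss at 10.6 ± 2.86 and H2-Aa at 10.3 ± 3.39. The exchange factors were lower, with H2-DMb1 at 2.70 ± 1.05 and H2-DMa at 2.01 ± 0.696, and Ciita was lowest at 0.121 ± 0.0584. The neighbours H2-Ab1 and H2-Eb1, H2-Eb1 and Ctss, Ctss and H2-Aa, and H2-DMb1 and H2-DMa had mean ± SD ranges that overlapped. The places of H2-Aa, Ctss and H2-Eb1 depend on the length taken. Per kb of the mean transcript length the order was Cd74 at 88.5, H2-Ab1 at 30.7, Ctss at 27.2, H2-Aa at 25.6 and H2-Eb1 at 17.0, with H2-DMb1 at 4.35, H2-DMa at 3.93 and Ciita at 0.180, and per kb of the longest coding transcript H2-Aa stood at 26.4 and H2-Ab1 at 26.3. Ciita had 7 to 65 counts per mouse, against 1225 to 4552 for Cd74.

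**Figure D1:**
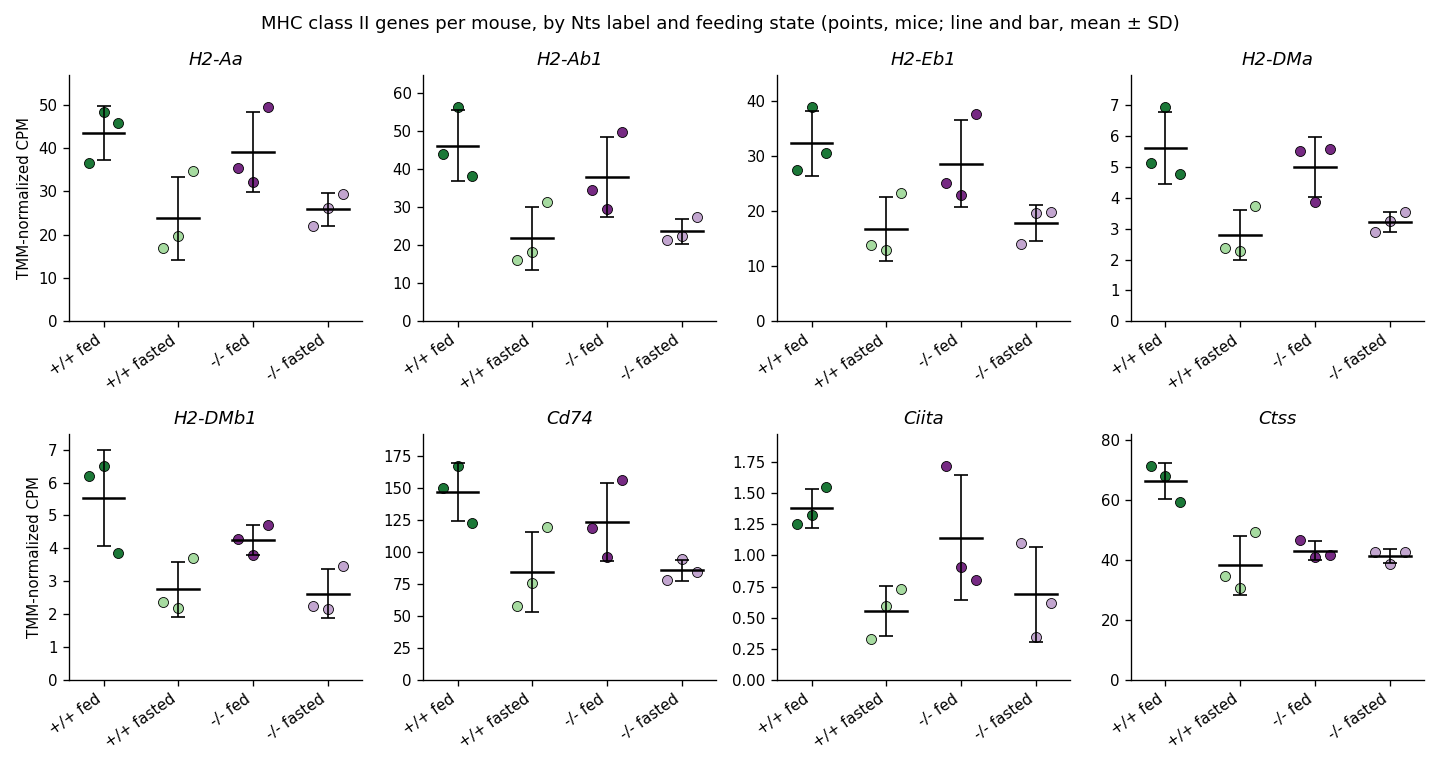
TMM-normalized CPM of the 8 genes (vertical axes, each from 0) in each of the 12 mice, by Nts label and feeding state; points are mice, the line is the group mean and the bar its SD. In the libraries labelled Nts+/+ all 3 fasted mice lie below all 3 fed mice for each gene, while Ctss of the libraries labelled Nts-/- is near 42 CPM in both feeding states.

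All 8 members were lower after fasting. Averaged over both genotype labels, they fell by 0.43 to 1.02 on the log2 scale, that is 1.35-fold for Ctss to 2.03-fold for Ciita. Their adjusted p-values from edgeR with Benjamini-Hochberg correction ran from 0.00233 to 0.0188, and 16.8% of all tested genes fell in the same comparison. The median of the members was -0.81 and that of all tested genes was -0.01 on the log2 scale. Leaving out any 1 of the 12 mice kept all 8 calls, except that Ciita was lost without mouse 277 of the fed Nts-/- group.

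In the libraries labelled Nts+/+, 7 of the 8 members fell with fasting, against 9.19% of all tested genes that were called lower. All 8 had fed and fasted mice that did not overlap, as did 17.9% of all tested genes in the downward direction. The median log2 fold change was -0.97 for the members and -0.003 for all tested genes. These calls rest on few mice: 1 member was left without mouse 257 (fed), 1 without mouse 282 (fasted) and 2 without mouse 265 (fasted), and 4 were called when no count filter was applied.

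The class II chains themselves fell together in that label. H2-Ab1, the β chain of I-A, stood at 44.0, 56.3 and 38.1 TMM-normalized CPM in the fed mice and at 16.1, 18.0 and 31.2 in the fasted mice. The highest fasted mouse, 322, lay below the lowest fed mouse, 323, and the other 2 fasted mice lay lower still. H2-Ab1 fell by 1.08 on the log2 scale (SE 0.262, 2.11-fold, edgeR adjusted p = 0.0151). H2-Aa, its α chain partner, was at 36.5, 48.3 and 45.8 CPM fed and at 17.0, 19.7 and 34.7 CPM fasted, a fall of 0.87 (SE 0.252, edgeR adjusted p = 0.0331). H2-Eb1, the β chain of I-E, went from 32.3 ± 5.91 to 16.7 ± 5.79 CPM (SD, n = 3), a fall of 0.95 (SE 0.256, edgeR adjusted p = 0.0235). H2-Ea-ps, the I-E α chain locus, which is a pseudogene in the reference strain, had 0 counts in all 12 mice, which allows up to 3 counts in each.

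Cd74, the invariant chain gene at chr18:60803848-60812646 (GRCm38), followed the chains. It stood at 150.2, 167 and 123 CPM in the fed and at 58.1, 76.0 and 119 CPM in the fasted mice, with mouse 322 again the highest of the fasted. The fall was 0.80 on the log2 scale (SE 0.241, 1.74-fold, edgeR adjusted p = 0.0372). The peptide exchange subunits fell as well. H2-DMa went from 5.63 ± 1.16 to 2.80 ± 0.819 CPM, 2.00-fold lower (edgeR adjusted p = 0.0116), and H2-DMb1 from 5.52 ± 1.45 to 2.76 ± 0.836 CPM, 1.99-fold lower (edgeR adjusted p = 0.0216), a call that held when the counts of its copy H2-DMb2 were added.

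Ciita and Ctss act at other steps of the pathway, transcription and invariant chain cleavage. Ciita was at 1.26, 1.32 and 1.55 CPM in the fed and at 0.332, 0.595 and 0.732 CPM in the fasted mice labelled Nts+/+, from 7 to 36 counts. Its difference of -1.27 had the widest error of the 8 (SE 0.428) and missed the threshold (edgeR adjusted p = 0.0545), which DESeq2 put on the other side (adjusted p = 0.0399). Ctss was at 71.3, 68.0 and 59.4 CPM fed and at 34.6, 30.7 and 49.2 CPM fasted, and fell by 0.79 (SE 0.156, 1.73-fold, edgeR adjusted p = 0.00396). Ctss was the member whose call held with each of the 6 mice left out.

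In the libraries labelled Nts-/-, none of the 8 members passed the test, while 9.14% of all tested genes were called lower. At an unadjusted p under 0.05 there were 6, and the Wald test of DESeq2 also called 0. All 8 differences were below 0, with a median of -0.65 on the log2 scale against -0.01 over all tested genes. Groups did not overlap in 6 of the 8, the exceptions being Ciita and Ctss, against 18.1% of all tested genes that lay wholly lower.

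The chains and Cd74 were again lower in all 3 fasted than in all 3 fed mice, without passing the test. H2-Ab1 was at 34.6, 29.5 and 49.8 CPM in the fed and at 21.2, 22.3 and 27.4 CPM in the fasted mice, a difference of -0.68 (95% interval -1.25 to -0.11, edgeR adjusted p = 0.0961). Cd74 was at 118, 96.4 and 157 CPM fed and at 78.1, 94.3 and 84.3 CPM fasted, a difference of -0.53 (95% interval -1.05 to -0.01, edgeR adjusted p = 0.147). The fasted mice of this label lay close together, and the fed mouse 319 stood above its companions for H2-Aa, H2-Ab1, H2-Eb1 and Cd74. H2-Aa, H2-Eb1, H2-DMa and H2-DMb1 had differences of -0.59, -0.68, -0.63 and -0.68, with edgeR adjusted p-values from 0.0844 to 0.127. Without mouse 319 the differences were -0.33 for Cd74, -0.38 for H2-Aa, -0.43 for H2-Ab1 and -0.43 for H2-Eb1.

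For Ctss, the invariant chain protease, fed and fasted mice of this label overlapped. It was at 46.6, 40.9 and 41.5 CPM in the fed and at 42.5, 38.5 and 42.5 CPM in the fasted mice labelled Nts-/-. The difference was -0.06 (95% interval -0.40 to 0.27, edgeR adjusted p = 0.824). Ciita was at 1.72, 0.905 and 0.806 CPM fed and at 1.10, 0.346 and 0.614 CPM fasted, a difference of -0.77 (SE 0.423, edgeR adjusted p = 0.235) that ran from -1.21 without mouse 284 to -0.33 without mouse 277.

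**Figure D2:**
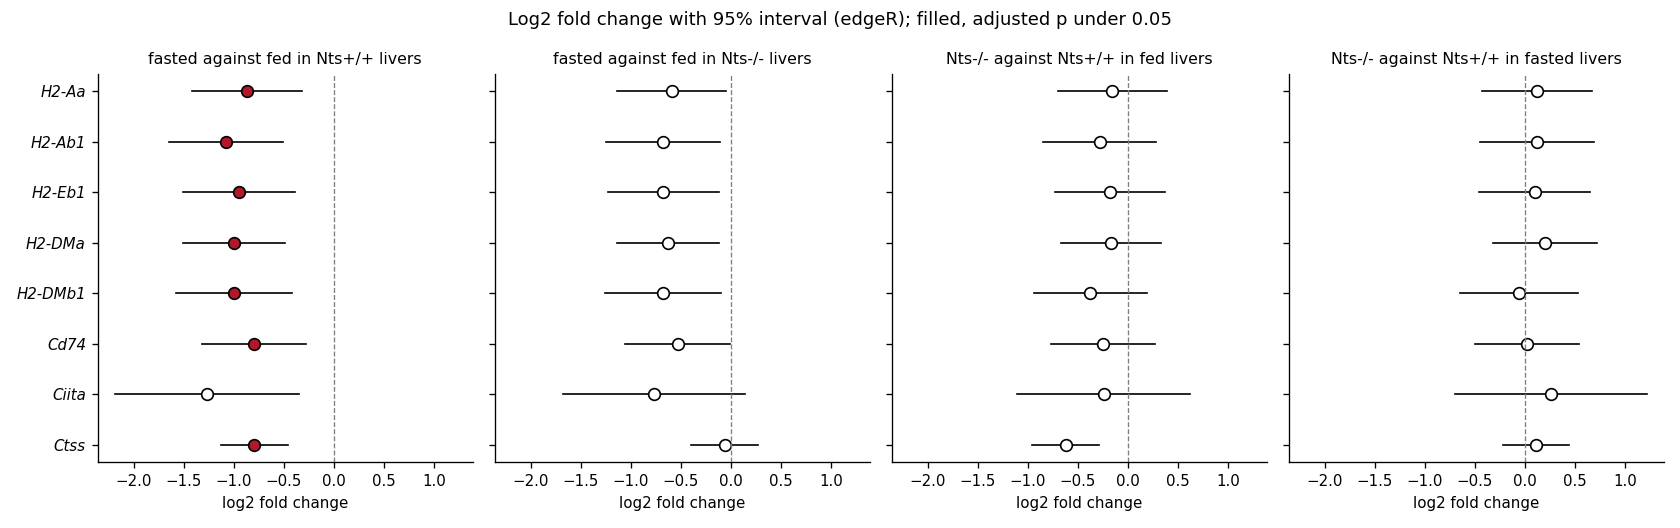
Log2 fold changes (horizontal axes) of the 8 genes from edgeR, with 95% intervals, for fasting in each genotype label and for genotype label in each feeding state; filled points have an adjusted p under 0.05. The 7 filled points are all in the fasting comparison of the libraries labelled Nts+/+, and Ctss is the gene whose interval leaves out 0 between labels in fed livers.

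A call in a single label does not show a difference between them, so the difference of the fasting responses was tested. None of the 8 members passed, and 0% of all tested genes did, with 663 genes at an unadjusted p under 0.05 and 3 called by DESeq2. All 8 differences were above 0, from 0.26 for Cd74 to 0.73 for Ctss on the log2 scale, with a median of 0.34 against -0.02 over all tested genes. These sizes depended on single mice: with each mouse left out in turn, Cd74 ran from 0.046 without mouse 265 to 0.60 without mouse 322, H2-Aa from 0.077 to 0.65 without those same mice, H2-DMb1 from 0.048 without mouse 295 to 0.60 without mouse 322, and Ciita from 0.048 without mouse 284 to 0.94 without mouse 277. Among the members, Ctss alone had an unadjusted p under 0.05 (0.73, SE 0.219, 95% interval 0.26 to 1.20, edgeR adjusted p = 0.897), and it ranked 41 of 13812. For the other 7 the intervals held 0, with upper ends from 1.00 for Cd74 to 1.79 for Ciita. Differences up to those sizes between the labels could therefore not be left out with these mice.

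Between the labels in fed livers, 0% of all tested genes were called by edgeR (876 at an unadjusted p under 0.05, 12 by DESeq2), and 0 of the 8 members. All 8 were below 0, from -0.16 for H2-Aa to -0.62 for Ctss. Ctss had 59.4 to 71.3 CPM in the fed Nts+/+ and 40.9 to 46.6 CPM in the fed Nts-/- libraries, which do not overlap, as was the case in the downward direction for 5.85% of all tested genes. The log2 difference was -0.62 (SE 0.155, 95% interval -0.96 to -0.29, rank 26 of 13812 by p), and it did not pass correction (edgeR adjusted p = 0.709, DESeq2 adjusted p = 0.111). Since the fed Nts+/+ mice enter this comparison and the fasting comparison of that label, the 2 results on Ctss are not independent. The other 7 members overlapped between the labels, with intervals such as -0.76 to 0.27 for Cd74 and -0.85 to 0.28 for H2-Ab1.

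Between the labels in fasted livers, 0% of all tested genes were called (685 at an unadjusted p under 0.05, 4 by DESeq2), and 0 of the 8 members at either threshold. The log2 differences lay between -0.06 for H2-DMb1 and 0.26 for Ciita, and all 8 overlapped. Averaged over feeding states, 0% of all tested genes and 0 of the 8 members were called (859 genes at an unadjusted p under 0.05, 16 by DESeq2). The averaged differences lay between -0.26 for Ctss (edgeR adjusted p = 0.767) and 0.01 for H2-DMa.

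**Figure D3:**
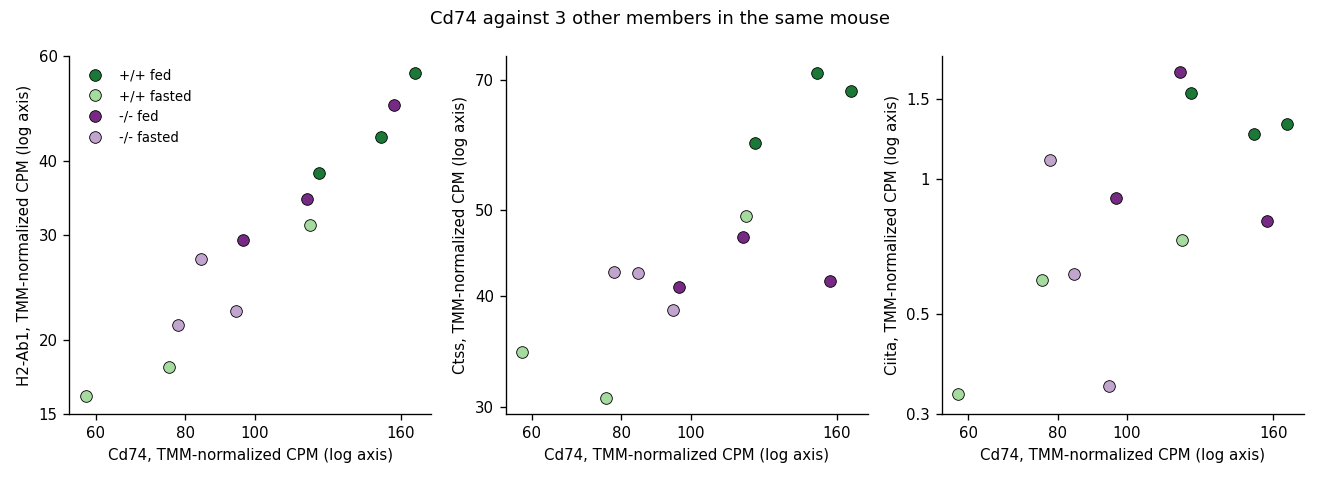
Cd74 (horizontal, TMM-normalized CPM, log axis) against H2-Ab1, Ctss and Ciita (vertical, TMM-normalized CPM, log axes) in the 12 mice, coloured by group. H2-Ab1 lies along a line through all groups (r = 0.968), whereas Ctss spreads more (r = 0.778) and Ciita, with 7 to 65 counts per mouse, most (r = 0.638).

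The members also varied together from mouse to mouse. Across the 12 mice, on the log2 scale, Pearson's r with Cd74 was 0.968 for H2-Ab1 (Spearman's rho 0.986), 0.937 for H2-Aa (rho 0.972), 0.937 for H2-Eb1 (rho 0.972), 0.930 for H2-DMa (rho 0.930) and 0.876 for H2-DMb1 (rho 0.867). It was 0.778 for Ctss (rho 0.741, adjusted permutation p = 0.00343 for r and 0.00898 for rho) and 0.638 for Ciita (rho 0.636, adjusted permutation p = 0.0258 and 0.0293). The permutation p-values of r, adjusted over the 7 relations, were 3.5e-05 for H2-Aa, H2-Ab1, H2-Eb1 and H2-DMa and 0.00028 for H2-DMb1, and those of rho ran from 3.5e-05 to 0.00077. These values include the difference between fed and fasted mice, so the relation was taken again on deviations from the group means. There r was 0.922 for H2-Ab1, 0.847 for H2-Aa, 0.841 for H2-DMa, 0.836 for H2-Eb1, 0.660 for H2-DMb1 and 0.604 for Ctss, with adjusted permutation p-values from 7e-05 to 0.0436. The permutation reordered all 12 deviations freely, although those of a group are tied by its mean, so these p-values are likely too small. The adjusted permutation p-values of H2-DMb1 (0.0259) and Ctss (0.0436) therefore do not settle whether these vary with Cd74 within groups. Ciita, with 7 to 65 counts per mouse, had an r of 0.102 on the deviations (adjusted permutation p = 0.754). Counting error at such counts can itself lower r. Without mice 265 and 257, the farthest from the median of Cd74, the r of Ciita over all mice went from 0.638 to 0.422. Its relation over all mice thus leaned on those mice and on the groups. The other 6 kept an r of 0.680 or more without them. Within the 6 fed mice H2-Ab1 had an r of 0.981 (adjusted exact p = 0.00973) and Ctss of 0.552 (adjusted exact p = 0.258), and within the 6 fasted mice 0.885 (adjusted exact p = 0.0390) and 0.710 (adjusted exact p = 0.164).

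Mouse 322 of the fasted Nts+/+ group and mouse 303 of the fed Nts-/- group stood between the feeding states. As the mean over the 8 members of log2 CPM centred over all mice, mouse 322 had 0.04 and was the highest of the fasted mice, mouse 303 had -0.01 and was the lowest of the fed mice, and mouse 265 had -0.77, the lowest of all. Fed and fasted mice thus met near 0 on this scale, without crossing except for that pair. The 5 tested genes outside the pathway whose levels were most like this mean over the 12 mice were Nans (r = 0.977), Hk3 (r = 0.972), Aaas (r = 0.968), Pld4 (r = 0.964) and Camk1 (r = 0.960). Nans is a sialic acid synthase, Hk3 the hexokinase of myeloid cells and Pld4 an endolysosomal nuclease. These were the highest among all tested genes that are no members and are given as a description.

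The other presentation genes were taken as lists. Only 2 of the 5 other class II genes in the table had enough counts, and neither H2-DMb2 (-0.44 and -0.39 on the log2 scale in the labels Nts+/+ and Nts-/-) nor H2-Ob, a subunit of the H2-DM inhibitor H2-O (-0.69 and -0.18), passed the test. Of 13 genes of endosomal processing, 2 fell and 1 rose with fasting in the libraries labelled Nts+/+, with a median of -0.09. Over all tested genes in this label 9.19% were called lower and 8.91% higher, near the shares in this list. Ctsb fell by 0.57 (SE 0.151, edgeR adjusted p = 0.0193) and Ifi30, a lysosomal thiol reductase, by 0.53 (SE 0.162, edgeR adjusted p = 0.0360). Ctsl, the cathepsin that cuts the invariant chain in thymic epithelium, rose by 0.50 (SE 0.158, edgeR adjusted p = 0.0413). In the libraries labelled Nts-/-, 9.14% of all tested genes were called lower and 7.70% higher. There 1 gene of the list fell and 3 rose: Ctsb had -0.51, while Ctsl had 0.87, Ctsz 0.61 and Ctsd 0.38. Ctss and Ctsl, proteases of the same family, thus lay on opposite sides of 0 in the label Nts+/+.

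Genes of class II transcription were also followed. Irf1, an interferon-induced activator of Ciita, fell with fasting by 1.25 (SE 0.176, edgeR adjusted p = 0.00051) in the libraries labelled Nts+/+ and by 0.75 (SE 0.174, edgeR adjusted p = 0.0104) in those labelled Nts-/-. Rfx5, the X box binding factor, fell by 0.76 in the label Nts-/- (edgeR adjusted p = 0.0268) and had -0.29 in the other (edgeR adjusted p = 0.370). The Y box factors did not pass: Nfya had 0.32, Nfyb -0.42 and Nfyc 0.28 in the label Nts+/+.

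Class I presentation loads peptides cut by the proteasome. Of its 17 genes, 10 fell with fasting in the libraries labelled Nts+/+ and 8 in those labelled Nts-/-, with none higher and medians of -0.54 and -0.37. Over all tested genes 9.19% and 9.14% were called lower in these labels. The inducible proteasome subunits led: Psmb9 fell by 1.76 (SE 0.188), Psmb10 by 1.70 (SE 0.200) and Psmb8 by 1.28 (SE 0.155), followed by the proteasome activator Psme2 at -1.09 and the peptide transporter subunit Tap2 at -0.84, with edgeR adjusted p-values from 0.000115 to 0.00118. In the label Nts-/- the lowest p-values belonged to Psmb10 (-1.44), Tapbp (-0.88), Psmb9 (-1.05), Tapbpl (-0.67) and Psmb8 (-0.79), with edgeR adjusted p-values up to 0.00383. The class I heavy chains, named after their values were seen, did not follow: H2-K1 had -0.06 and 0.13, and H2-D1 0.01 and 0.30. Of the 6 tested costimulatory genes, 1 fell in the label Nts+/+, Cd86 by 0.86 (SE 0.234, edgeR adjusted p = 0.0217), and 0 in the label Nts-/-. Averaged over the labels 2 of the 6 fell, Cd86 by 0.71 (edgeR adjusted p = 0.00512) and Cd274 by 0.65 (edgeR adjusted p = 0.0360). In that comparison 16.8% of all tested genes were called lower.

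**Figure D4:**
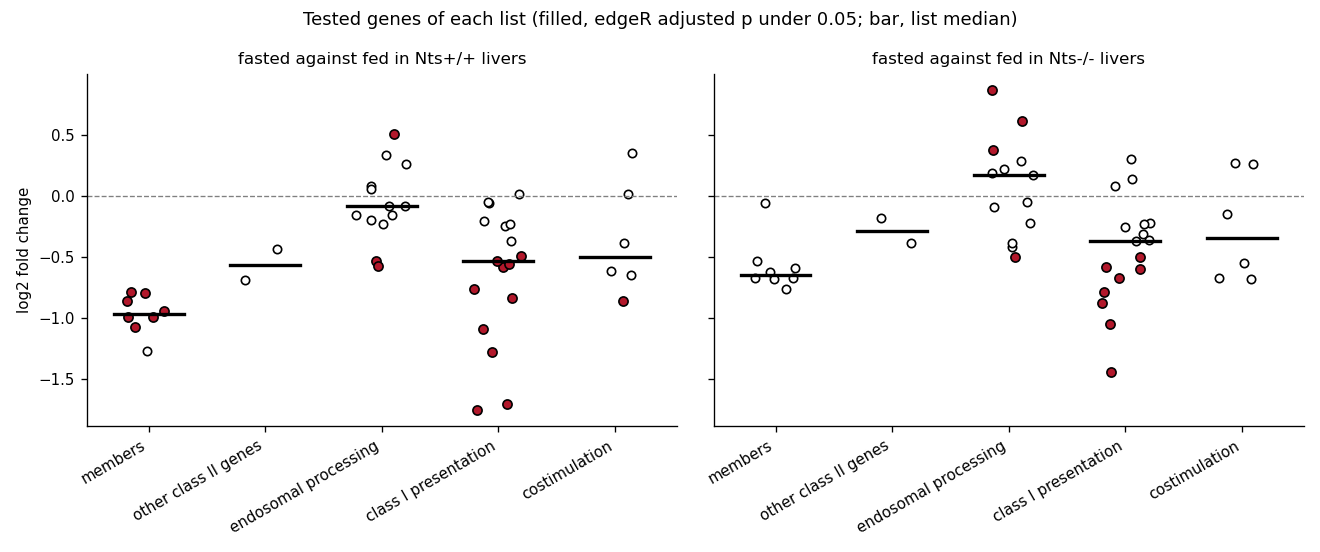
Log2 fold changes with fasting (vertical axis) of every tested gene of the class II members and of 4 related lists, in each genotype label; filled points have an edgeR adjusted p under 0.05 and bars are list medians. The members' median is the lowest of the 5 lists in both labels (-0.97 and -0.65), and the class I list spans from -1.76 upward.

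The libraries had the markers of liver, with 8 hepatocyte genes summing to 114536 to 145870 CPM in the 12 mice. Markers of the cells that carry class II were measured beside the members. The summed level of 12 Kupffer cell markers ran from 869 to 957 CPM in the fed and from 524 to 767 CPM in the fasted libraries labelled Nts+/+, and from 646 to 772 CPM in the fed and from 604 to 826 CPM in the fasted libraries labelled Nts-/-. In the label Nts+/+, 4 of the 12 fell with fasting, Clec4f, C1qa, C1qb and C1qc, by 0.66 to 0.86 (edgeR adjusted p from 0.00569 to 0.0258), and all 12 were below 0. The share of all tested genes called lower in this label was 9.19%. In the label Nts-/- 0 of the 12 passed, with a median of -0.05. There the highest fasted sum was that of mouse 290, while mice 284 and 295, at 604 and 628 CPM, lay below the fed mice. Marco had 163 to 2400 counts in the fasted mice of this label, a mean of 40.5 ± 54.9 CPM (SD). Between the labels in fed livers 11 of the 12 were below 0, with a median of -0.43, and 0 passed. The Kupffer sum thus had the order of Ctss over the 4 groups, high in fed Nts+/+ and lower in the other 3, and its part in the result on Ctss was not tested.

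Marker lists of other cell types were summed in the same way. The summed level of 11 dendritic cell markers lay between 8.72 and 11.5 CPM in all 12 mice, and its groups overlapped in both fasting comparisons. Of the 9 tested, 0 were called in either, with medians of -0.20 and -0.10. The sum of 9 B cell markers ran from 13.0 to 17.9 CPM in the fed and from 12.3 to 13.8 CPM in the fasted libraries labelled Nts+/+, and from 14.1 to 23.3 and from 9.66 to 18.4 CPM in those labelled Nts-/-, with 0 of 9 called in either. Monocyte and neutrophil markers summed to 117 to 184 CPM in the fed and 72.4 to 97.1 CPM in the fasted libraries labelled Nts+/+, which do not overlap, and 1 of 9 fell (Ccr2). Lyz2 made up 136 CPM of the mean of 145 CPM in those fed mice. In the label Nts-/- the sums were 78.8 to 111 CPM fed and 77.6 to 150.0 CPM fasted, which overlap, and 1 of 9 fell (Cx3cr1). T and NK cell markers also did not overlap in the label Nts+/+, at 9.38 to 10.2 and 5.74 to 7.97 CPM, and 1 of 11 tested fell (Gzma). In the label Nts-/- they overlapped at 8.23 to 10.7 and 7.05 to 9.74 CPM. These counts of 1 of 9 and 1 of 11 lay near the shares of all tested genes called lower, 9.19% in the label Nts+/+ and 9.14% in the label Nts-/-. Sinusoidal endothelial markers summed to 207 to 297 CPM fed and 183 to 196 CPM fasted in the label Nts+/+. In the label Nts-/- the sums were 236 to 262 and 175 to 212 CPM, and fed and fasted mice did not overlap in either. Of these 8 markers, 7 were below 0 in each label. In each label 2 of the 8 were called lower, against 9.19% and 9.14% of all tested genes. In the label Nts+/+ Clec4g fell from a mean of 63.1 to 28.4 CPM and Fcgr2b fell by 0.48 (edgeR adjusted p = 0.046). Lyve1 instead rose there by 1.17 (SE 0.242, edgeR adjusted p = 0.00545). Hepatic stellate cell markers summed to 386 to 473 CPM fed and 355 to 390 CPM fasted in the label Nts+/+, which overlap. In the label Nts-/- they summed to 391 to 455 and 343 to 372 CPM, which do not. All 7 were below 0 in each label. Called lower were 1 of 7 in the label Nts+/+ (Lrat) and 3 of 7 in the label Nts-/- (Lrat, Reln and Col1a1), against 9.19% and 9.14% of all tested genes. Cholangiocyte markers, from bile duct cells, summed to 33.5 to 49.9 CPM in the 6 fed and 13.8 to 29.7 CPM in the 6 fasted mice. Most of that sum was Spp1, at a mean of 34.5 CPM in fed and 17.3 CPM in fasted Nts+/+ mice (edgeR adjusted p = 0.0402). With fasting, Sox9 had 0.26 on the log2 scale in the label Nts+/+ and -0.99 in the label Nts-/- (edgeR adjusted p = 0.0354). In the same order, Epcam had -0.67 and 0.23 and Krt19 -0.87 and -0.75, without passing the test. The part of each of these cell types in the fall of the class II genes was not tested.

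**Figure D5:**
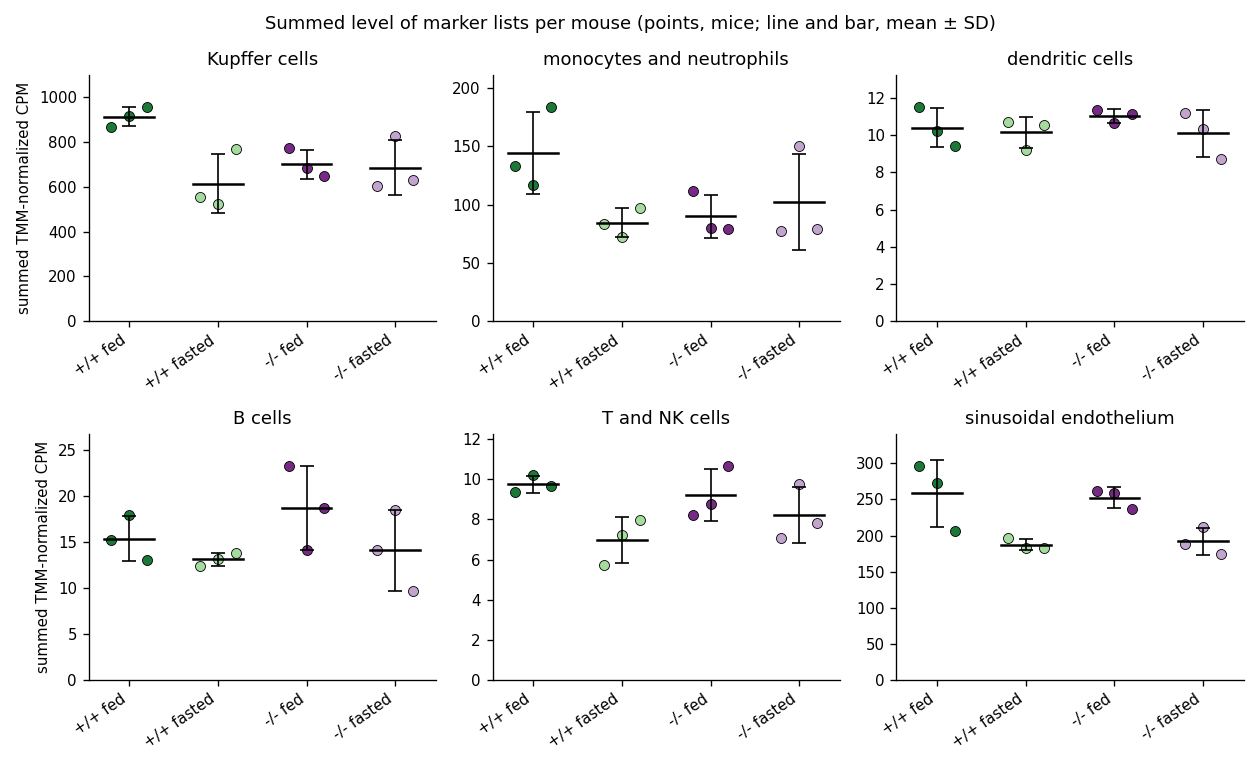
Summed TMM-normalized CPM of 6 marker lists (vertical axes, each from 0) in each mouse by group; points are mice, lines means and bars SD. Kupffer cell markers are highest in the 3 fed mice labelled Nts+/+ (869 to 957 CPM), and dendritic cell markers stay between 8.72 and 11.5 CPM in all groups.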

How the data were processed

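Liver RNA of 12 mice was sequenced, 3 in each of 4 groups, all of 1 batch label. The authors deposited expected counts per gene (estimated counts that need not be whole, not scaled between mice) with GRCm38 positions. Their processing notes name Trimmomatic and RSEM. Versions and settings are not given in the sources used here, nor is a strand setting. Expected counts were rounded. In R 4.3.3, edgeR 4.0.16 kept 13812 genes (filterByExpr), normalized by TMM and fitted 1 quasi-likelihood model (robust) with a mean per group. Benjamini-Hochberg adjusted p-values under 0.05, over all genes tested, were called, and the SE was taken from the F statistic. The script was tested on simulated data. CPM carries the TMM factor. Log2 CPM for correlations used a prior count of 2, with permutations of 100000 resamples over 12 mice and exact ones over 6. GENCODE gene models gave transcript lengths by Ensembl ID, and RefSeq (GRCm38.p6) the promoters. Results were recomputed with RLE or upper-quartile scaling, no filter or a minimum of 10 counts, other thresholds, H2-DMb1 with H2-DMb2 added, the compared mice alone, DESeq2 1.42.0, and each mouse left out. The members and lists were chosen with earlier results of these data known. 1 gene of the class II transcription list is not reported here, nor are that list's counts. Named beside the members were up to 5 called genes per list and comparison, by smallest p, and the 5 genes most like their mean. Genes named outside that rule, without a call, include H2-DMb2, H2-Ob, the Y box factors, H2-K1, H2-D1, Lyz2, Marco, Epcam and Krt19. The edgeR p-values rest on the spread between mice within groups, pooled over the 4 groups and steadied by that of other genes. Permutation and exact p-values rest on reordering the 12 or 6 mice, for the deviations too without regard to group. Floors of 3 counts cover counting error only.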

Additional observations from a re-analysis of the deposited data

How the results depend on the processing

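Fasting averaged over the genotype labels gave 8 called members, 7 to 8 with each mouse left out (Ciita was lost without mouse 277) and 1 when a log2 fold change of 1 or more in size was also asked. In the libraries labelled Nts+/+ the count of 7 became 4 without a count filter, 1 with that fold threshold, and 1 to 7 with each mouse left out. H2-Aa, H2-Eb1 and Cd74 were lost without the filter (edgeR adjusted p from 0.0663 to 0.091), and H2-Aa and Cd74 when the compared mice alone were fitted (0.062 and 0.0688). Ciita gained its call under upper-quartile normalization, in that fit and in DESeq2. In the libraries labelled Nts-/- the count of 0 became 3 at an adjusted p under 0.10. With 10 counts asked of every mouse, Ciita was not tested. The cause of these changes was not tested, beyond the fewer mice or the larger number of genes tested. Genotype comparisons called 0 members throughout. When each mouse was left out in turn, some of their directions turned. In fed livers H2-DMa, alone of the 8, turned and ran from -0.27 to 0.012 on the log2 scale. In fasted livers H2-Aa ran from -0.079 to 0.50, H2-Ab1 from -0.062 to 0.47, H2-Eb1 from -0.053 to 0.42, H2-DMb1 from -0.33 to 0.23, Cd74 from -0.20 to 0.35, Ciita from -0.20 to 0.55 and Ctss from -0.019 to 0.33. Averaged over feeding states, H2-Aa ran from -0.12 to 0.17, H2-Ab1 from -0.20 to 0.094, H2-Eb1 from -0.17 to 0.12, H2-DMa from -0.050 to 0.15, Cd74 from -0.22 to 0.052 and Ciita from -0.22 to 0.15, and Ciita was at -0.00058 without a count filter. The mice are described as littermates, but their labels give no litter, so no analysis paired by litter was possible. In fasted livers, with 3 mice a group, the 95% interval of the genotype difference was -0.23 to 0.44 for Ctss. It was -0.70 to 1.21 for Ciita. Differences within these intervals are not excluded. The intervals are not corrected over the genes tested, so they do not give the size that would be called.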
